A study of Mus musculus with 11 samples.

Results

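The guide strands of the miR-29 family are described here: mmu-miR-29a, mmu-miR-29b and mmu-miR-29c, where mmu stands for mouse and is left out below. They were chosen by name, as the assays of the table of unnormalized PCR cycles whose names equal these once the assay number is removed, and they are 3 of the 517 miR assays in it. Each is an assay for 1 mature microRNA (miR). The table holds 11 aortas of as many female apoE-/- mice, which have no apolipoprotein E and are prone to atherosclerosis. The groups were 4 mice on normal diet (control), labelled as free of atherosclerosis, 4 mice fed a high fat diet for 3 months, and 3 mice fed it for 10 months, the fed groups being labelled as atherosclerotic. Cholesterol made up 0.15% of that diet, crude fat 21% and casein 19.5%. Every group carries the apoE-/- genotype, so no aorta of an apoE-sufficient mouse is part of these comparisons. The labels give all mice an age of 6 to 8 weeks without saying at which point, and they do not say how long the controls were kept, so age and time on the diet cannot be told apart. For the 10-month mice 1 label gives a treatment of 3 months, and the 10 months of their titles and of the design text was followed. RNA came from the whole aorta, in which fewer cells of a type and less RNA per cell cannot be told apart.

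A mature miR guides the Argonaute protein to messenger RNAs that pair with its seed, the stretch of bases near the 5′ end that sets most of its targets, and it lowers their translation or stability. The miR-29 family is best known for repressing extracellular matrix genes, among them fibrillar collagens, elastin and fibrillin, and its loss goes with fibrosis in several organs. In the vessel wall, matrix genes of this kind give the aorta its strength and recoil, and they make up the fibrous cap of a plaque. None of these target messenger RNAs was measured here.

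The mature guide strands are printed to show what the 3 assays have in common and by how little they differ. The seed (bases 2 to 8) is in capitals, and the sequences are those of RefSeq for assembly GRCm38.p6.
miR-29a: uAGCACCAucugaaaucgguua
miR-29b: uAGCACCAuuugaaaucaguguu
miR-29c: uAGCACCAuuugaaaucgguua
All 3 share the seed AGCACCA, and of 1679 mature mouse miR names in the RefSeq table only these 3 have it. Counted from 1 at the 5′ end, miR-29a differs from miR-29c at 1 position (C10U). It differs from miR-29b at 4 of the shared positions (C10U, G18A, U21G and A22U), and miR-29b has 23 bases where the other members have 22. The sources used here do not say how far each assay also reads the other members.

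The genes lie in 2 pairs. Mir29a (mature strand chr6:31062673-31062694, minus strand) lies 275 bases from Mir29b-1 (chr6:31063025-31063047, minus strand), measured between the hairpins, and neither overlaps another gene in the RefSeq gene table. Mir29c (chr1:195037600-195037621, plus strand) lies 426 bases from Mir29b-2 (chr1:195037091-195037113, plus strand), both within the gene A330023F24Rik. Both copies of miR-29b give the same mature sequence, so the miR-29b assay cannot say which locus its signal came from.

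The PCR measures the cycle at which an assay crosses a threshold, so an earlier cycle stands for more template. The level used below is minus the cycle number, relative to the mean of the 285 miRs detected (below 35 cycles) in all 11 aortas, on a log2 scale on which 1 unit stands for a 2-fold difference if each cycle multiplies the template by 2. Per aorta, 322 to 380 miRs were detected, and the mean cycle of the 285 miRs ran from 23.2 to 26.9, latest in replicate 2 of the 10-month group. The smooth muscle miRs miR-145 and miR-143 ranked 1 and 8 by mean level among the 353 miRs tested, and the endothelial miR-126-3p ranked 3. Differences between groups were tested with limma over the 353 miRs, with p adjusted by Benjamini-Hochberg over all of them.

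All 3 guide strands were detected in all 11 aortas. miR-29a crossed the threshold between 16.2 and 19.7 cycles and ranked 15 of 353 by mean level. miR-29c crossed it between 19.99 and 24.99 cycles (rank 73), and miR-29b between 23.8 and 28.5 cycles (rank 167). The assays' efficiencies are not given, so this order is one of cycles and not of molecules.

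**Figure D1:**
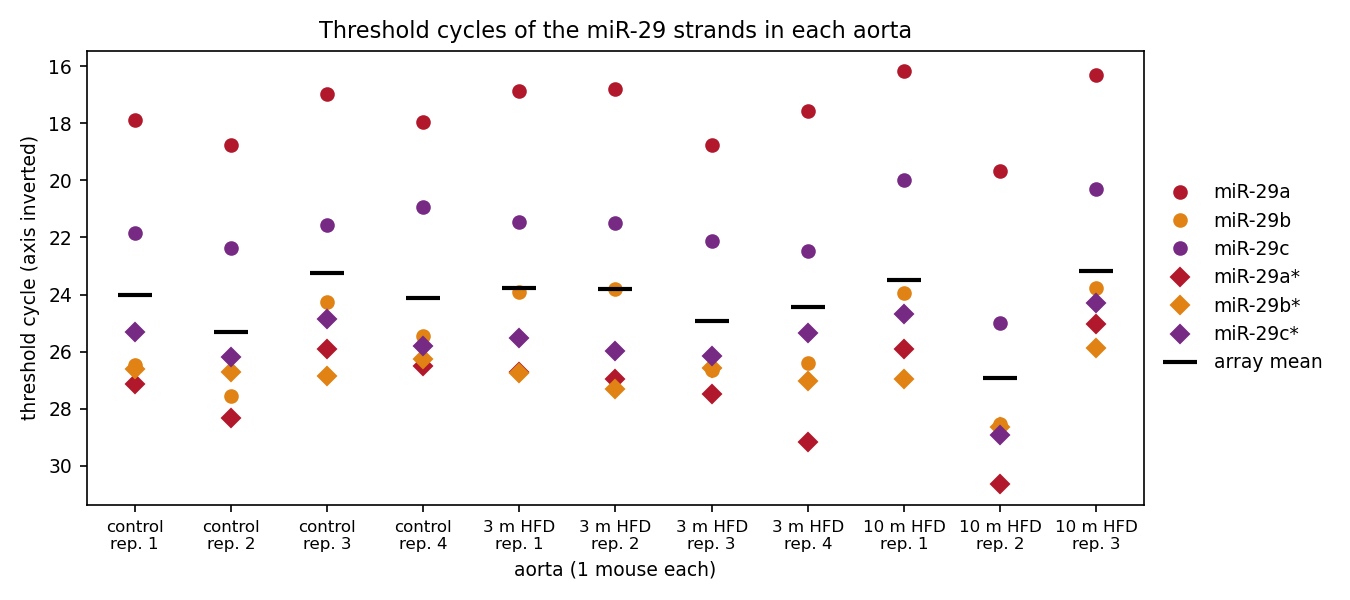
Threshold cycle of each miR-29 strand in each of the 11 aortas, with the vertical axis inverted so that more template is higher: circles for guide strands, diamonds for passenger strands (*), and black bars for the mean of the 285 miRs detected in every aorta. Guide and passenger points lie lowest in replicate 2 of the 10-month group, whose array mean was 26.9 cycles.

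On the array-mean scale, miR-29a was the only member whose levels in the 10-month aortas did not overlap those of the controls. Its level was 6.12, 6.53, 6.29 and 6.17 in the 4 control aortas, 6.89, 6.99, 6.17 and 6.84 after 3 months, and 7.31, 7.26 and 6.87 after 10 months. All 3 aortas of the 10-month group lay above all 4 controls, and 3 of 4 aortas of the 3-month group did so, the exception being replicate 3. After 10 months it averaged 7.15 ± 0.24 (SD, n = 3), against 6.28 ± 0.18 (SD, n = 4) in controls, which is 1.83-fold higher (log2 fold 0.87, SE 0.29, 95% interval 0.23 to 1.51 before adjustment). limma did not call it (adjusted p = 0.126, unadjusted p = 0.0125, rank 35 of 353 by p). limma called 4.53% of the 353 miRs in this comparison, and in 15.9% of them the groups did not overlap (6.52% with the 10-month aortas higher).

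The call on miR-29a at 10 months depended on how the arrays were centred, while its sign did not. With the array median as centre the log2 fold was 1.11 and limma called it (adjusted p = 0.0483). The log2 fold over all 16 alternatives on the full set of mice ran from 0.49 to 1.11 and the adjusted p from 0.0483 to 0.996. Leaving out each mouse in turn gave log2 folds of 0.79 to 1.01 (limma adjusted p 0.0825 to 0.325), with 0.81 (limma adjusted p = 0.298) without the late replicate 2 of the 10-month group. The groups stayed apart under 7 of 9 scalings, and they overlapped with no normalization and with the small-RNA control assays as centre. The 9 are not independent: they count the array mean both with and without the guide strands. They also count the snoRNA202 and snoRNA429 centre again as the authors' normalized values.

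The 3-month aortas lay between the other groups in miR-29a. They averaged 6.72 ± 0.38 (SD, n = 4), 1.36-fold above controls (log2 fold 0.45, SE 0.27, 95% interval -0.14 to 1.04, limma adjusted p = 0.685), and the groups overlapped because of replicate 3. With snoRNA202 and snoRNA429 as centre this log2 fold was 0.088, and with the small-RNA control assays it was -0.25, so its sign depended on the reference. Between 10 and 3 months the log2 fold was 0.42 (SE 0.29, 95% interval -0.21 to 1.06, limma adjusted p = 0.567). On the array-mean scale the order of the mean levels was therefore 10 months, 3 months, control, and both pairs of neighbours overlapped. With the array median as centre, or with each block centred by itself, the 10-month aortas lay above all 3-month ones. The log2 folds were then 0.70 and 0.48, not called by limma (adjusted p = 0.283 and 0.359).

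miR-29b was the most variable member, with an SD of 0.84 over the 11 aortas, against 0.58 for miR-29c and 0.44 for miR-29a. Its level was -2.45, -2.24, -0.9998 and -1.33 in control aortas, -0.15, -0.0012, -1.69 and -1.96 after 3 months, and -0.46, -1.62 and -0.61 after 10 months. Each group held both high and low aortas: replicates 1 and 2 of the 3-month group were the highest of all, whereas replicates 3 and 4 lay inside the range of the controls. The means were -1.75 ± 0.70 in controls, -0.95 ± 1.02 after 3 months and -0.90 ± 0.63 after 10 months (SD, n = 4, 4 and 3).

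The mean of miR-29b was 1.81-fold higher after 10 months than in controls, close to the ratio of miR-29a, but with an SE of 0.60 that left it uncalled (log2 fold 0.85, 95% interval -0.47 to 2.18, limma adjusted p = 0.607). After 3 months the log2 fold was 0.80 (SE 0.55, 95% interval -0.42 to 2.03, limma adjusted p = 0.690), and 2 of 4 aortas lay above all controls. Leaving out 1 mouse moved this value between 0.49 (without 3-month replicate 2) and 1.14 (without 3-month replicate 4). It was 0.11 with the small-RNA control assays as centre, 0.45 with snoRNA202 and snoRNA429, as in the authors' normalized values, and 1.18 with array weights. Between 10 and 3 months the log2 fold was 0.05 (SE 0.60, 95% interval -1.28 to 1.38), and it took the other sign when any of 4 single mice was left out. With the small-RNA control assays as centre, the 10-month aortas lay above all controls in miR-29b. The log2 fold between 10 months and control was then 0.99, not called by limma (adjusted p = 0.916).

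miR-29c had the smallest log2 folds of the 3 against controls on the array-mean scale, but not on every scale. Its level was 2.15, 2.94, 1.71 and 3.19 in control aortas, 2.32, 2.30, 2.83 and 1.95 after 3 months, and 3.51, 1.93 and 2.87 after 10 months. On the array-mean scale all groups overlapped, and the lowest and highest of the 10-month aortas lay near the lowest and above the highest control. The 10-month mean was 2.77 ± 0.79 (SD, n = 3), against 2.50 ± 0.69 (SD, n = 4) in controls (log2 fold 0.27, SE 0.47, 95% interval -0.77 to 1.32, limma adjusted p = 0.869). Single mice decided this value: it was -0.09 without 10-month replicate 1, 0.69 without 10-month replicate 2 and 0.01 without control replicate 3. The 3-month mean was 2.35 ± 0.36 (SD, n = 4), a log2 fold of -0.15 against controls (SE 0.44, limma adjusted p = 0.940). It was -0.84 with the small-RNA control assays as centre and -0.51 with snoRNA202 and snoRNA429, where the median of all miRs was -0.75 and -0.41. The 10-month aortas differed from the 3-month ones by 0.42 (SE 0.47, limma adjusted p = 0.724). This last value was 0.05 without 10-month replicate 1 and 0.83 without 10-month replicate 2. With the small-RNA control assays as centre, miR-29a and miR-29c each had a log2 fold of 1.25 between 10 and 3 months, where the median of all miRs was 0.89. On that centre the 10-month aortas lay above all 3-month ones in miR-29c, which limma did not call (adjusted p = 0.311).

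**Figure D2:**
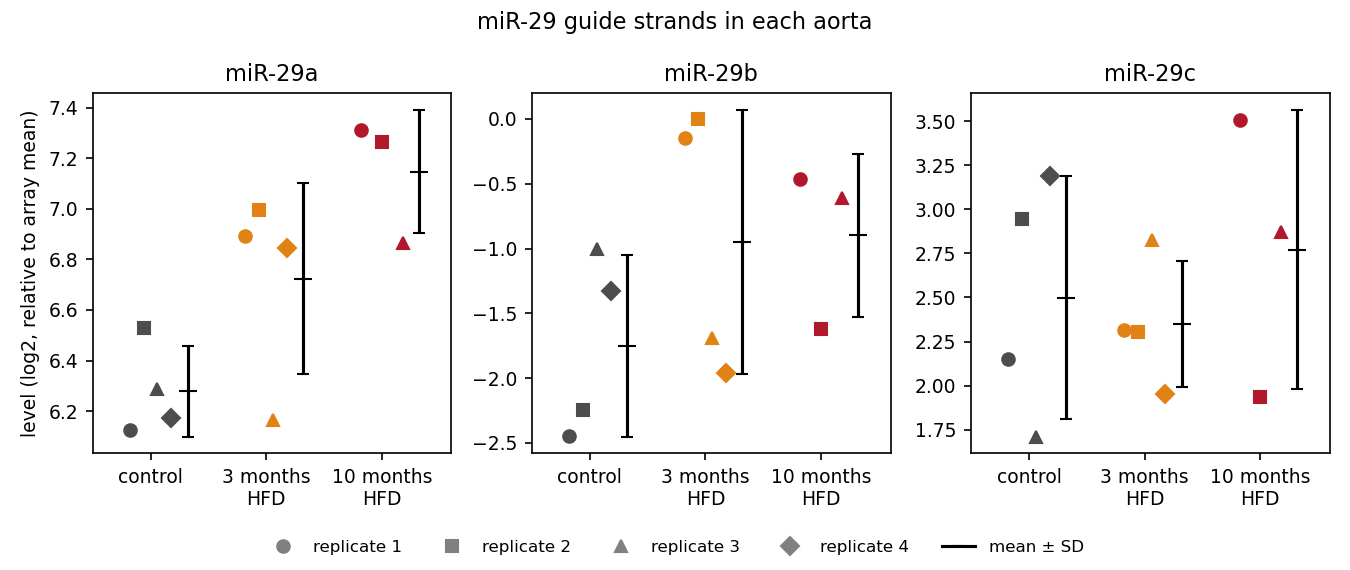
Level of each miR-29 guide strand per aorta (log2, relative to the array mean, separate vertical scales), for control, 3 months and 10 months of high fat diet (HFD), with 1 point per mouse and black bars for mean ± SD. For miR-29a the 3 points at 10 months lie above the 4 controls, whereas the groups overlap for miR-29b and miR-29c.

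Counted together on the array-mean scale, limma called 0 of the 3 guide strands in each of the 3 comparisons. In the comparison of 10 months with control 1 of 3 (miR-29a) had an unadjusted p under 0.05, a share of 17% over all 353 miRs. Between 3 months and control, and between 10 and 3 months, limma called 0% of the 353 miRs. There 0 of the 3 guide strands had an unadjusted p under 0.05, against 8.5% and 13% of all miRs, and for 0 of the 3 were the groups apart, against 5.38% and 12.2% of all miRs. The mean of the 3 guide strands was 1.94, 2.41, 2.33 and 2.68 in control aortas, 3.02, 3.10, 2.43 and 2.28 after 3 months, and 3.45, 2.53 and 3.04 after 10 months. The groups overlapped in this mean.

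The ratios between members were computed within each aorta, which makes them independent of how the arrays were centred, and they asked whether the family moved as a unit. miR-29a over miR-29b, in cycles, was 8.57, 8.77, 7.29 and 7.50 in control aortas, 7.038, 6.996, 7.853 and 8.806 after 3 months, and 7.77, 8.89 and 7.48 after 10 months. miR-29a over miR-29c was 3.97, 3.59, 4.58 and 2.99 in control aortas, 4.58, 4.69, 3.34 and 4.89 after 3 months, and 3.802, 5.331 and 3.992 after 10 months. miR-29b over miR-29c was -4.60, -5.19, -2.71 and -4.51 in control aortas, -2.46, -2.31, -4.51 and -3.92 after 3 months, and -3.97, -3.56 and -3.49 after 10 months. In all 3 ratios the groups overlapped.

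No ratio was called different between groups, by a test that could hardly call one. The largest difference was that of miR-29b over miR-29c after 3 months, -3.30 ± 1.09 against -4.25 ± 1.07 in controls (SD, n = 4 each), or 1.94-fold (exact two-sided permutation p = 0.171, 0.735 after Benjamini-Hochberg adjustment over the 9 ratio comparisons). miR-29a over miR-29c was 0.59 higher than in controls after 3 months (exact permutation p = 0.286) and 0.60 higher after 10 months (exact permutation p = 0.343), on the log2 scale. miR-29a over miR-29b differed by 0.01 between 10 months and control (exact permutation p = 1). The smallest p that such a test can give here is 0.0286.

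**Figure D3:**
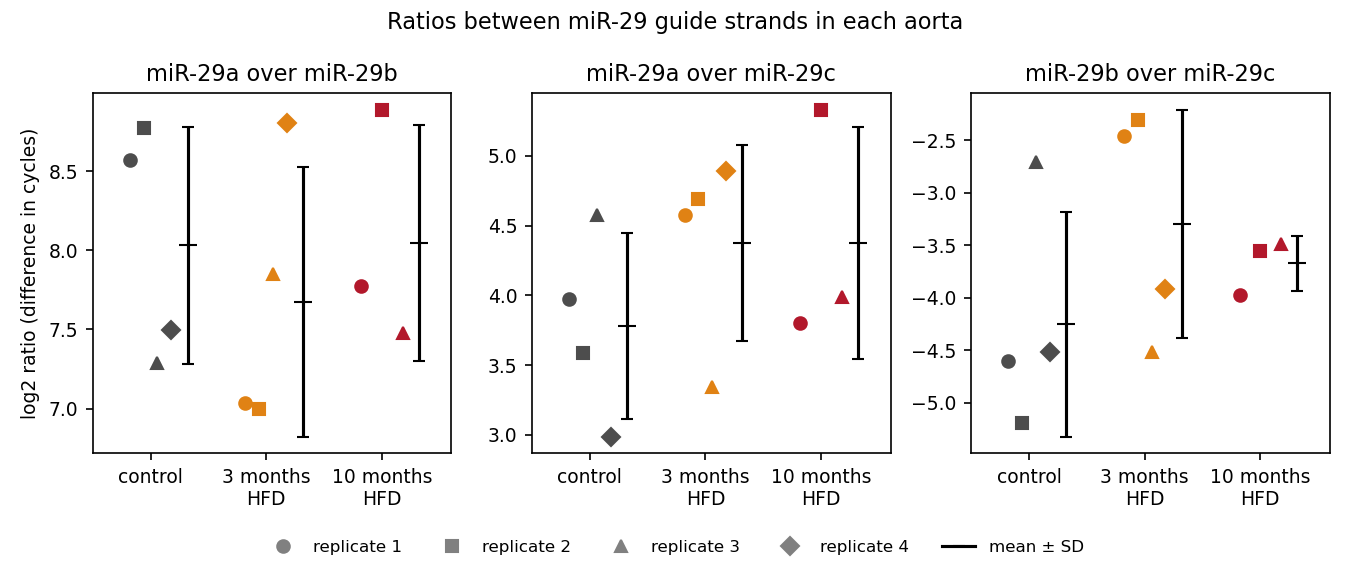
Ratios between the miR-29 guide strands within each aorta (log2, the difference between the cycle numbers of the 2 assays), with 1 point per mouse and black bars for mean ± SD in control, 3 months and 10 months of high fat diet (HFD). In each panel the points of all 3 groups overlap.

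Most ratios between members varied across the 11 aortas about as much as their ratios to other miRs. The SD of the log2 ratio was 0.73 for miR-29a over miR-29b, whose genes lie together on chromosome 6, 0.71 for miR-29a over miR-29c and 0.95 for miR-29b over miR-29c, whose genes lie together on chromosome 1. The median SD over the 279 other miRs detected in every aorta was 0.76 against miR-29a, 1.07 against miR-29b and 0.88 against miR-29c. Set among these 279, miR-29a ranked 18 in closeness to miR-29b, whereas miR-29b ranked 131 and miR-29c ranked 126 in closeness to miR-29a. miR-29c ranked 81 in closeness to miR-29b, and in closeness to miR-29c miR-29a ranked 74 and miR-29b ranked 160. In replicate 2 of the 10-month group miR-29a was high while miR-29b and miR-29c were the lowest of their group.

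By the same measure, the miRs whose levels kept the most constant ratio to miR-29a were miR-126-3p, an endothelial miR (SD 0.25), miR-132 (SD 0.25) and miR-511 (SD 0.27), over 11 aortas. For miR-29b they were miR-500 (SD 0.51), miR-27a (SD 0.52) and let-7i (SD 0.56), and for miR-29c they were miR-125b* (SD 0.47), miR-361 (SD 0.50) and miR-700 (SD 0.51). For the mean of the 3 guide strands they were miR-101a (SD 0.26), miR-15a (SD 0.31), miR-30e (SD 0.32), miR-27a (SD 0.32) and miR-324-3p (SD 0.34), where the median over the 279 miRs was 0.79. These values describe 11 aortas of 3 groups and carry no test.

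The passenger strands are the other arm of each hairpin, usually degraded once the guide is loaded, and all 3 (miR-29a*, miR-29b* and miR-29c*) were assayed, in the second block of assays, and detected in all 11 aortas. They crossed the threshold at 25.0 to 30.6, 25.9 to 28.6 and 24.3 to 28.9 cycles in that order. Hairpins Mir29b-1 and Mir29b-2 give different passenger strands, and the assay name does not say which of these miR-29b* reads. None of the 3 set the diet groups apart. After 10 months the log2 folds against control were 0.13 (SE 0.57) for miR-29a*, -0.19 (SE 0.62) for miR-29b* and -0.06 (SE 0.38) for miR-29c*, with limma adjusted p between 0.937 and 0.983. After 3 months they were -0.55 (SE 0.53), -0.24 (SE 0.57) and -0.15 (SE 0.36), with limma adjusted p between 0.814 and 0.940. Between 10 and 3 months they were 0.68 (SE 0.57), 0.05 (SE 0.62) and 0.09 (SE 0.38), with limma adjusted p between 0.645 and 0.985.

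The guide and passenger of miR-29a did not keep a fixed ratio. With each assay block centred on its own miRs, the log2 ratio of miR-29a over miR-29a* was 7.11, 7.05, 6.78 and 6.36 in control aortas, 6.98, 6.98, 6.94 and 9.57 after 3 months, and 7.55, 8.14 and 6.95 after 10 months. Replicate 4 of the 3-month group stood apart, with miR-29a* at 29.2 cycles, and the groups overlapped. The ratio of miR-29b over miR-29b* spread the most, from -3.32 to 0.47 in control aortas, -1.83 to 0.34 after 3 months and -2.75 to 0.82 after 10 months. In raw cycles miR-29b* itself changed little between aortas (SD 0.70 over 11, against a median SD of 1.23 over the 285 miRs). Relative to the array mean, miR-29b* varied more than the median miR, with an SD of 0.78 against 0.65. It was latest, at 28.6 cycles, in replicate 2 of the 10-month group, and lay between 25.9 and 27.3 cycles in the other aortas.

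**Figure D4:**
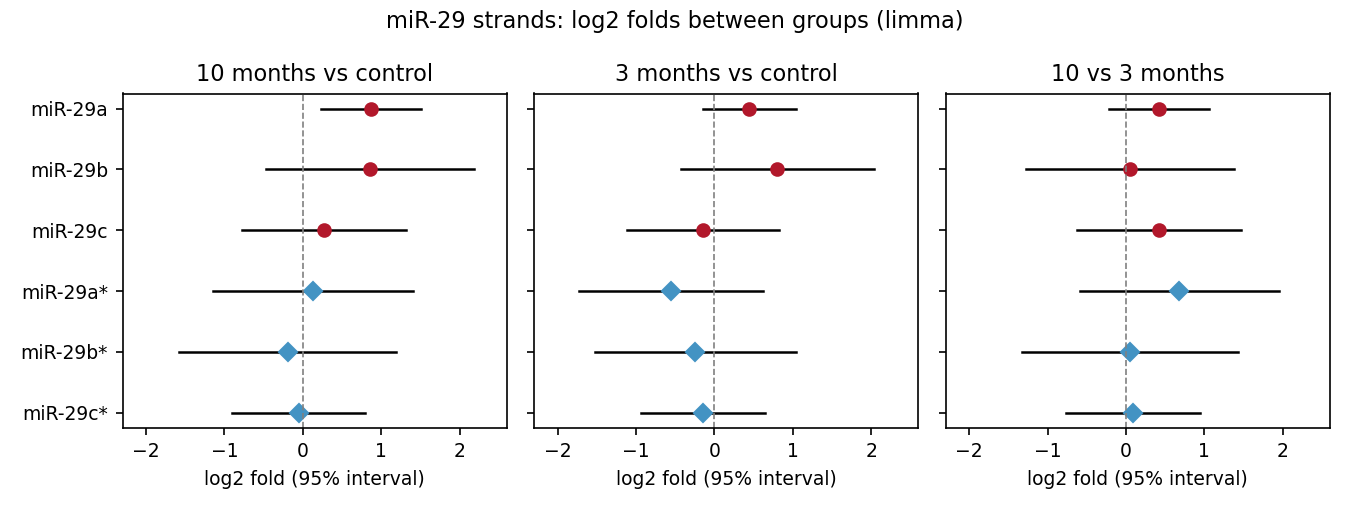
Log2 folds of the 3 guide strands (red circles) and 3 passenger strands (blue diamonds) for 10 months against control, 3 months against control and 10 against 3 months of high fat diet, with 95% intervals before adjustment (limma, all 11 aortas). The interval of miR-29a at 10 months (0.23 to 1.51) lies above 0, and the others include 0.

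Other miRs linked to matrix and fibrosis were followed through a list of 24 names, of which 23 had an assay found here and 22 were tested. The list was chosen with earlier results of these data known, so calls within it are not independent of them. miR-21* is the only member named as a passenger strand (*). After 10 months, against control, 1 rose (miR-21*, from the other arm of the hairpin of miR-21, a miR raised in fibrotic tissue), 0 fell, and 21 were not called by limma. miR-21 itself was among those not called, and its groups overlapped (log2 fold 0.50, SE 0.38, limma adjusted p = 0.634). Among all 353 miRs 0.85% rose and 3.68% fell. Of the 22 folds 14 were positive, against 50.4% of all miRs. The median log2 fold was 0.24, beside 0.0049 over all 353 miRs. miR-21* was at -4.24, -5.08 and -4.53 after 10 months, against -5.96, -6.77, -5.61 and -6.57 in controls, with no overlap (log2 fold 1.61, SE 0.37, limma adjusted p = 0.0475). This call was lost in 8 of 16 alternatives on the full set of mice (limma adjusted p 0.00955 to 0.996) and in 9 of 11 fits that left out 1 mouse (0.0419 to 0.174), while the log2 fold ran from 1.25 to 1.85. The next smallest p values of the list belonged to miR-146a, which restrains NF-kB signalling (log2 fold 2.08, limma adjusted p = 0.0533), and miR-155, an immune cell miR (1.83, limma adjusted p = 0.0738). After them came miR-204 (0.88, limma adjusted p = 0.139), miR-26a (-0.75, limma adjusted p = 0.245) and miR-181a (-0.45, limma adjusted p = 0.525). The log2 fold of miR-29a thus had about the size of that of miR-204, and for each of them the 10-month aortas and the controls did not overlap.

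After 3 months 0 of the 22 rose, 0 fell and 22 did not pass, with 13 positive folds (47% of all miRs) and a median log2 fold of 0.25, beside -0.05 over all 353 miRs. The smallest p values belonged to miR-146a (1.16), miR-204 (0.57), miR-194 (0.49), miR-155 (0.73), miR-30c (0.49) and miR-133a (0.54), with limma adjusted p from 0.519 to 0.690. Between 10 and 3 months 0 of 22 passed as well, with 11 positive folds (55% of all miRs) and a median of -0.02, beside 0.06 over all miRs. There miR-21* (1.77, limma adjusted p = 0.0740), miR-26a (-0.67), miR-26b (-0.91), miR-155 (1.09), miR-146a (0.93) and miR-181a (-0.45) had the smallest p values. The 10-month and 3-month comparisons with control share the same 4 controls.

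Markers of cell types of the wall were set beside miR-29a. miR-126-3p was at 9.54, 9.98 and 8.76 after 10 months, against 8.29, 8.69, 8.40 and 8.21 in controls, with no overlap (log2 fold 1.03, SE 0.36, limma adjusted p = 0.139). Its other arm miR-126-5p had a log2 fold of 0.20 (SE 0.25), and the mean of these 2 endothelial miRs ran from 7.09 to 7.71 after 10 months, against 6.69 to 7.10 in controls. The mean of the 6 leukocyte miRs ran from 2.56 to 4.01 after 10 months, against 2.11 to 2.72 in controls. Of their folds 5 of 6 were positive, against 50.4% of all 353 miRs. The groups were apart for 2 of the 6, miR-146a and miR-155, against 15.9% of all miRs. Both are also in the matrix and fibrosis list, so these are the same values as above. The negative fold was that of miR-142-3p (-0.14). After 3 months 4 of the leukocyte folds were positive and 2 negative, where 47% of all miRs had a positive fold. There the groups were apart for miR-146a and miR-155, both higher, and for miR-142-3p, which was lower (log2 fold -1.37, limma adjusted p = 0.339). Over all 353 miRs the groups were apart in 5.38%. The mean of the 3 smooth muscle miRs ran from 4.60 to 5.12 after 10 months, against 4.41 to 5.29 in controls. No member of the endothelial, leukocyte or smooth muscle list passed limma in any of the 3 comparisons, and every one was detected in all 11 aortas. The part of these cell types in the values of miR-29a was not tested.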

How the data were processed

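Per the labels, total RNA was extracted from whole aorta with the mirVana kit, and the design text states an RNA integrity number over 8. The authors deposited threshold cycles, a log2 scale read backwards, for 517 miR assays and 13 control wells in 2 assay blocks, with 40 for no amplification (judging from the values). They also deposited normalized log2 values, which equal the cycle minus the mean of snoRNA202 and snoRNA429 within rounding, found by setting both tables side by side. No source used here names the instrument or its software.

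Minus the cycle was used, with wells at 35 or later set to 35, and the mean of the 285 always-detected miRs was subtracted per array. The 353 miRs with 3 or more detected samples in some group (235 and 118 per block) entered 1 limma fit over all 3 groups (limma 3.58.1, R 4.3.3, 8 residual degrees of freedom, two-sided, called at an adjusted p under 0.05). Ratios between members used exact permutation tests. Each sample is 1 mouse and 1 array per the labels, so the number of mice limits the precision: against control, log2 folds had a median SE of 0.49 (10 months) and 0.46 (3 months). The fit was also run on simulated data, in which miRs varied independently and no shift between assay blocks was built in. The outcome of that run is not given and bears on no result here. Named miRs were the family, up to 6 members of the matrix list per comparison by p, markers, and the miRs with the most constant ratio to the family. The members, lists and tests were chosen with earlier results of these data known. In the lists, miR-181b and miR-144 were not analysed here, and miR-199a-5p was not tested. The labels state no pairing by replicate number, and the fit used none.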

Additional observations from a re-analysis of the deposited data

Results flagged for a closer look

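In 2 of 26 groups of 4 aortas tested, 1 aorta lay further from the others than Dixon's 95% critical value, where chance gives about 1 in 20. The log2 ratio of miR-29a over miR-29a* in 3-month replicate 4 was 9.57, against 6.94 to 6.98 in the other 3 aortas of its group (gap over range 0.983). The log2 ratio of miR-29c over miR-29c* in control replicate 4 was 2.66, against 1.16 to 1.34 in the other 3 controls (gap over range 0.881). The 10-month group, with 3 aortas, was not tested for this.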

How the results depend on the processing

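Replicates limit these results, with 3 or 4 mice per group. Over 16 alternatives that kept every mouse, limma called no guide strand in any comparison except miR-29a at 10 months with the array median (1.11), and leaving out each mouse added no call. The values that changed sign are given next, and the cause was not tested. With the small-RNA control assays miR-29a at 3 months was -0.25 and miR-29c* at 10 months 0.082. Without normalization, miR-29b between 10 and 3 months was -0.25, miR-29c at 10 months -0.085, miR-29a* at 10 months -0.23, and between 10 and 3 months miR-29b* was -0.25 and miR-29c* -0.21. With array weights miR-29b between 10 and 3 months was -0.084, miR-29b* -0.12, and miR-29c* at 10 months 0.13. With the array median, at 10 months miR-29b* was 0.049 and miR-29c* 0.19. On the snoRNA202 and snoRNA429 centre, and likewise in the authors' normalized values, they were 0.030 and 0.17. With each block centred by itself, between 10 and 3 months miR-29b* was -0.079 and miR-29c* -0.039.

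The labels state no pairing of mice by replicate number, and the fit used none. Deviations of same-numbered mice correlated from -0.13 to 0.30 over 10 pairs, and in 9 of 20 cases a mouse correlated best with its own number. No chance rate was computed for these values, so they do not show whether the numbers pair the mice. With the replicate block, miR-29a at 10 months was 0.87 with no call, miR-29b between 10 and 3 months -0.047, miR-29a* at 10 months -0.036 and the ratio of miR-29a over miR-29b at 10 months -0.16 (sign-flip over 3 pairs), and 6 miRs in place of 16 were called at 10 months.

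Leaving out each mouse in turn, the log2 fold of miR-29b between 10 and 3 months ran from -0.29 to 0.40, and that of miR-29c from -0.095 to 0.69 at 10 months and -0.40 to 0.086 at 3 months. At 10 months miR-29a* ran from -0.28 to 0.65, miR-29b* from -0.65 to 0.22 and miR-29c* from -0.21 to 0.22. At 3 months miR-29b* ran from -0.62 to 0.10 and miR-29c* from -0.35 to 0.071, and between 10 and 3 months from -0.42 to 0.47 and -0.12 to 0.36. The ratio of miR-29a over miR-29b ran from -0.41 to 0.30 at 10 months against control and -0.048 to 0.75 between 10 and 3 months, and that of miR-29a over miR-29c from -0.48 to 0.29 between 10 and 3 months. Over all alternatives limma called 0 to 29 miRs at 10 months against control, where the fit used here called 16, 0 or 1 at 3 months and 0 to 10 between 10 and 3 months. Scalings moved the median of all miRs to between -0.75 and 0.89. Subtracting that median cancels any shift common to a whole array. Settings that differ only in such a shift therefore had to give the same value, for miR-29a 0.86 at 10 months and 0.50 at 3 months. They cannot test its stability. Relative to that median, over the 16 alternatives miR-29a lay 0.51 to 0.89 higher at 10 months and 0.34 to 0.59 higher at 3 months, and miR-29b 0.55 to 1.06 and 0.75 to 1.21 higher, whereas miR-29c ran from -0.027 to 0.68 and from -0.21 to 0. Between 10 and 3 months miR-29a ran from 0.11 to 0.40, miR-29b from -0.25 to 0.21 and miR-29c from 0.12 to 0.73.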
